A study of Mus musculus with 10 samples.

Results

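The levels of 10 genes of the inflammatory response were compared in primary mouse hepatocytes given a free fatty acid with or without Neurotropin (NTP). They are the cytokine genes Tnf, Il1a, Il1b and Il6, the interleukin-1 receptor antagonist gene Il1rn, the feedback inhibitor genes Nfkbia and Tnfaip3, and the subunit genes Nfkb1, Nfkb2 and Relb. They were chosen with earlier results of these data known. They were taken by name from 18055 gene IDs with a value in any library. All 10 were found and passed the filter on low counts, as did 14097 genes in all. Il1b and Il6 passed that filter only through the groups that received palmitate.

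Hepatocytes of C57BL/6 mice were isolated by collagenase perfusion and cultured on collagen. Vehicle cells received no fatty acid. PA cells received 200 µM palmitate and LA cells 12 µM linoleate for 24 h, and PA+NTP and LA+NTP cells received NTP at 0.4 NU/mL for 1 h before the same fatty acid. No group received NTP alone. RNA was sequenced in 2 libraries of each of these 5 groups, 10 in all, with totals of 13142588 (PA 1) to 60046937 (LA+NTP 2) expected counts. The sources used here do not say whether the 2 libraries of a group came from separate cultures or animals, so the p-values below measure only the spread between these libraries. The 2 fatty acids were given at different concentrations, so values of PA and LA are a contrast of these treatments, not of the acids at one dose.

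NF-κB is a family of dimeric transcription factors built from Rela, Relb, Rel and the processed products of Nfkb1 (p50) and Nfkb2 (p52). In resting cells IκB proteins such as the product of Nfkbia hold the dimers in the cytoplasm, and receptors for TNF, interleukin-1 and microbial products release them through the IκB kinases. The dimers switch on cytokine genes and also genes of their own inhibitors, Nfkbia and Tnfaip3 (A20), which close the loop. In liver the cytokines are made largely by resident macrophages (Kupffer cells), and the hepatocyte is known above all as their target, which answers interleukin-6 and interleukin-1 with acute-phase proteins.

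The sequences below show where the 10-letter κB consensus, the binding motif of NF-κB, lies in the promoters of members that the results turn on. Both strands of RefSeq promoter windows (GRCm38.p6, 250 bases before to 50 after a start) were searched, which were given for 8 of the 10 members. Nfkb1 and Relb are named only. The match is in capitals, with 10 bases on each side.

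Il6, chr5:30013060-30013089, plus strand: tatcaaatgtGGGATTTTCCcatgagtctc
Nfkbia, chr12:55492657-55492686, minus strand: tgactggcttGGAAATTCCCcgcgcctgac
Tnfaip3, chr10:19015403-19015432, minus strand: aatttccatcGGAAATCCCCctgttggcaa
Nfkb2, chr19:46304688-46304717, plus strand: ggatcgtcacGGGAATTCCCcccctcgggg

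The Il6 match began 44 bases before the start, that of Nfkbia 29 bases, and that of Tnfaip3 12 bases. The Nfkb2 match began 39 bases before an internal start of the gene and overlapped a second match shifted by 1 base. Tnfaip3 and Nfkb2 held further matches that are not shown. In all, 4 of the 8 members held a match, and Tnf, Il1a, Il1b and Il1rn held none in these windows. A match was present in 4.51% of the 32851 windows given for all genes, and in 6.22% of the 11123 tested genes that had a window. A match is a description of letters, and no match says nothing of sites outside the window.

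The members spanned a wide range of levels in Vehicle cells. Nfkb2 (35.2 FPKM ± 0.83, SD, n = 2, as for every group mean below), Nfkbia (32.0 ± 1.7) and Nfkb1 (29.3 ± 0.64) lay at the 84.1, 82.6 and 81.1 percentiles of the tested genes. FPKM scales the fragments of a gene by transcript length and library size. Il1rn (16.1 ± 0.52) and Relb (12.8 ± 0.48) followed, and Tnfaip3 (6.07 ± 0.15) stood near the middle, at the 45.3 percentile. Il1a (0.685 FPKM ± 0.064) and Tnf (0.53, the same in both libraries) were low, at the 17.4 and 15.4 percentiles. Il1b (0.09 ± 0.042) and Il6 (0.065 ± 0.049) were near the lower limit of detection. Both Vehicle libraries together held only 5 counts of Il1b and 3 of Il6. The antagonist gene was far more abundant per length than the 2 agonist genes it opposes.

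**Figure D1:**
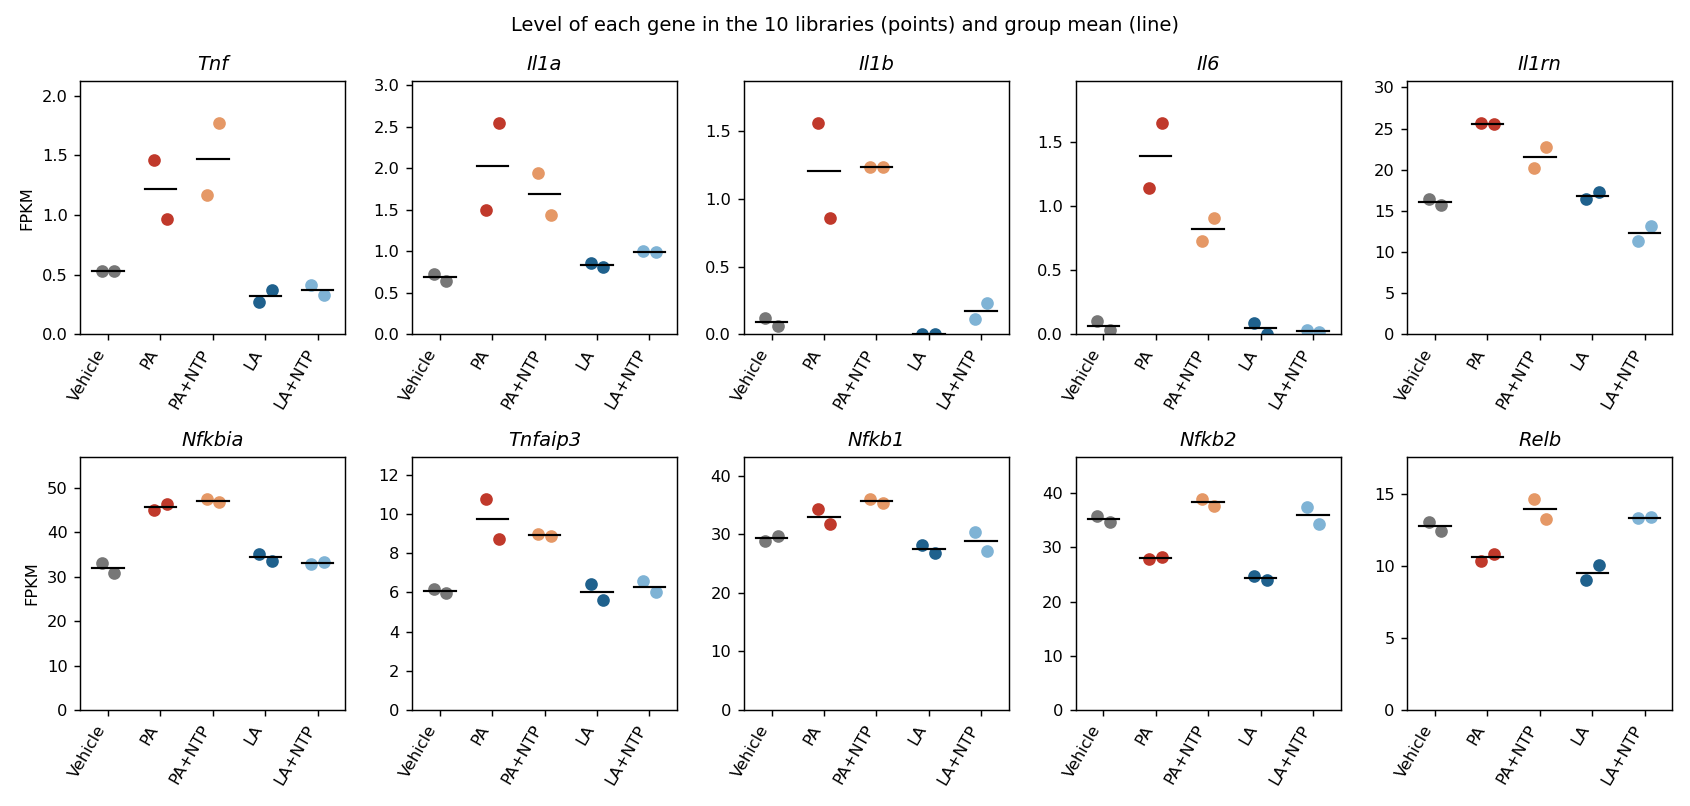
FPKM of the 10 members (y axes, each from 0) in the 2 libraries of each group (x axis); points are libraries and lines are group means. In 8 of the 10 panels all 4 libraries with palmitate lie above all 6 without it. Of these, Il1b and Il6 passed the filter only through palmitate. Nfkb2 and Relb instead are lowest in PA and LA.

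Palmitate raised the cytokine genes, their antagonist and 1 feedback inhibitor. Against Vehicle, 6 of the 10 members were called higher (adjusted p under 0.05 in edgeR's quasi-likelihood test over all tested genes, and a fold of at least 1.5) and 0 lower, where 6.0% of all tested genes were called higher and 8.92% lower. Of the 6, Il1b and Il6 entered the test only through the groups where they were high, so their calls add no support, and the other 8 members held 4 calls. With no filter on low counts, edgeR also called 6 members higher, against 4.75% of 18027 genes. The other 4 members passed the adjusted p but not the fold, so that 10 of 10 passed it, as did 45.5% of all tested genes in either direction. The median log2 fold change was 0.69 for the members and -0.008 for all tested genes.

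Il6, the main inducer of acute-phase proteins in hepatocytes, was measured at 0.10 and 0.03 FPKM in Vehicle and at 1.14 and 1.65 FPKM in PA. The groups did not overlap. The 85 counts in PA against 3 in Vehicle gave a depth-scaled ratio of 25.4 (95% interval 8.39 to 125, counting error only). Il1b, which encodes interleukin-1β, was measured at 0.12 and 0.06 FPKM in Vehicle and at 1.56 and 0.86 FPKM in PA. Again no library of one group reached the other. Its 71 counts in PA against 5 in Vehicle gave a ratio of 12.7 (5.2 to 40.3, counting error only).

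Il1a encodes interleukin-1α, which is active without the cleavage that interleukin-1β needs. Its level was 0.73 and 0.64 FPKM in Vehicle and 1.5 and 2.54 FPKM in PA, a log2 fold change of 1.66 (SE 0.29, edgeR adjusted p = 0.000342). The lower PA value came from the shallowest library, with 39 counts against 196 in the other. Tnf encodes tumor necrosis factor and was at 0.53 FPKM in both Vehicle libraries and at 1.46 and 0.97 FPKM in PA, a log2 fold change of 1.17 (SE 0.38, edgeR adjusted p = 0.0212). This call rested on few counts, 92 in PA and 39 in Vehicle, and was lost without Vehicle 1 (adjusted p = 0.0789), without Vehicle 2 (0.0965) and without PA 1 (0.11).

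Il1rn, whose product occupies the interleukin-1 receptor without signalling, rose from 16.48 and 15.75 FPKM in Vehicle to 25.65 and 25.57 FPKM in PA (log2 fold change 0.70, SE 0.09, edgeR adjusted p = 3e-05). All PA values lay above all Vehicle values. After a trend of the libraries with the GC content of transcripts was removed, the change was 0.43 (edgeR adjusted p = 0.00295) and no longer reached the fold.

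Tnfaip3, which encodes the ubiquitin-editing enzyme A20 that shuts off signalling from the TNF receptor, stood at 6.18 and 5.97 FPKM in Vehicle and at 10.77 and 8.75 FPKM in PA. The log2 fold change was 0.68 (SE 0.10, edgeR adjusted p = 0.000107), and without PA 1 it was 0.53, under the fold. Nfkbia, which encodes IκBα, stood at 33.23 and 30.82 FPKM in Vehicle and at 45.03 and 46.37 FPKM in PA. This log2 fold change of 0.55 (SE 0.07, edgeR adjusted p = 1.8e-05) stayed just under the fold, and with the GC trend removed it was 0.73 and passed. Without Vehicle 1 it was 0.61 and also passed. Both inhibitor genes were higher in each PA library than in each Vehicle library.

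Among the subunits, Nfkb1 was at 28.85 and 29.75 FPKM in Vehicle and at 34.35 and 31.74 FPKM in PA, a log2 fold change of 0.20 (SE 0.07, edgeR adjusted p = 0.0244). This was 0.06 (edgeR adjusted p = 0.547) with the GC trend removed. Nfkb2 went the other way, from 35.82 and 34.64 FPKM to 27.83 and 28.30 FPKM, a log2 fold change of -0.32 (SE 0.06, edgeR adjusted p = 0.000798). Relb, the usual partner of p52, was at 13.11 and 12.43 FPKM in Vehicle and at 10.37 and 10.87 FPKM in PA, a log2 fold change of -0.23 (SE 0.09, edgeR adjusted p = 0.0452). None of these 3 reached the fold of 1.5.

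Linoleate gave a different set of values. Against Vehicle, 0 of the 10 members were called higher or lower in edgeR's test (3.53% and 7.11% of all tested genes), and the members' median log2 fold change was -0.15, against -0.007 for all tested genes. At an unadjusted p under 0.05 there were 4 members, and DESeq2 called 1, Il1b. Nfkb2 at 24.74 and 23.92 FPKM (log2 fold change -0.51, SE 0.06, edgeR adjusted p = 2.47e-05) and Relb at 9.01 and 10.10 FPKM (-0.37, SE 0.09, 0.00293) were below both Vehicle libraries and were the 2 members that passed the adjusted p alone, which 41.3% of all tested genes passed.

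No cytokine gene passed the test in LA. Il1b had 0 counts in both LA libraries, against 5 counts in Vehicle. With the 0 of LA set to a floor of 3 counts over the group, Vehicle was 1.98-fold above LA. This ratio leaves out the counting error of the 5 counts and is not a lower limit. EdgeR's adjusted p for Il1b was 0.055, and it fell under 0.05 with no filter on low counts (0.0307) and in DESeq2 (0.0413). Il6 had 3 counts in LA and 3 in Vehicle. Tnf was at 0.27 and 0.37 FPKM (log2 fold change -0.71, SE 0.43) and Il1a at 0.86 and 0.81 FPKM (0.35, SE 0.31), neither past the adjusted p. Il1rn at 16.42 and 17.31 FPKM, Nfkbia at 35.23 and 33.59 FPKM, Tnfaip3 at 6.44 and 5.60 FPKM and Nfkb1 at 28.21 and 26.88 FPKM had log2 fold changes between -0.04 and 0.15.

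**Figure D2:**
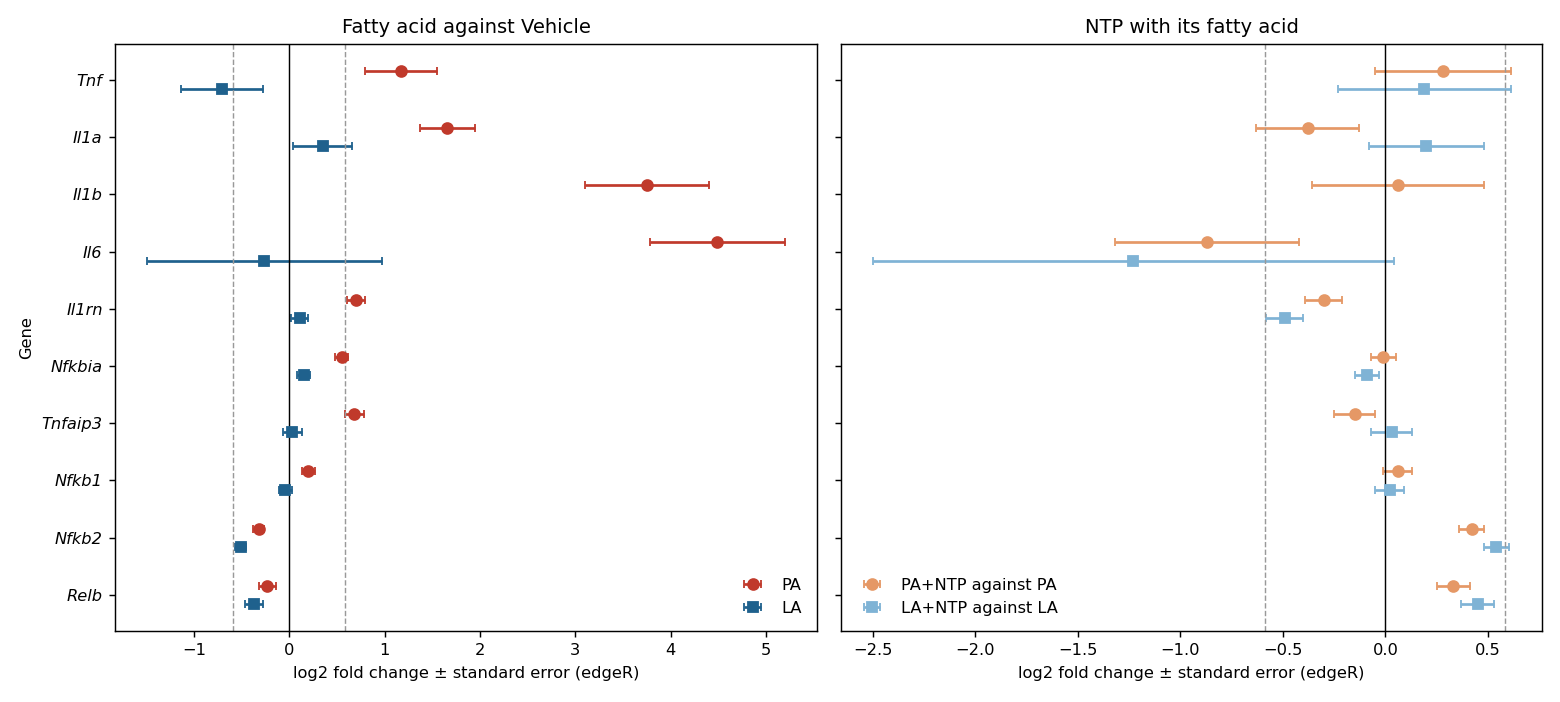
Log2 fold changes of the members (x axes) with standard errors from edgeR, for each fatty acid against Vehicle (left) and NTP with its fatty acid against that fatty acid alone (right); dashed lines mark a fold of 1.5. Il1b is left out of the contrasts with LA, which had 0 counts. The points for Il6, Il1b, Il1a and Tnf in PA lie farthest to the right, and in the right panel Nfkb2 and Relb lie above 0 and Il1rn below 0 with either acid.

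Set directly against LA, PA was higher in 6 of the 10 members and lower in 0, where edgeR called 1.18% of all tested genes higher and 2.04% lower. The called members were Tnf, Il1a, Il1b, Il6, Il1rn and Tnfaip3, the same 6 as against Vehicle. Il1b and Il6 again entered the test only through the palmitate groups, and with no filter on low counts 6 were also called, against 1.25% of all genes. With the 0 counts of Il1b in LA set to a floor of 3, PA (71 counts) was 25.1-fold above LA. This ratio leaves out counting error and is not a lower limit. The ratio for Il6 was 30.1 (9.95 to 149, counting error only). Tnf differed by a log2 fold change of 1.88 (SE 0.40) and Il1a by 1.31 (SE 0.27). The calls of Tnf (without LA 1, edgeR adjusted p = 0.095) and Il1a (without PA 2, LA 1 or LA 2, from 0.053 to 0.186) rested on single libraries. Il1rn (0.59) and Tnfaip3 (0.65) stood close to the fold of 1.5: Il1rn fell under it without PA 1, LA 1 or LA+NTP 2 (0.54 to 0.58), and Tnfaip3 without PA 1 or LA 2 (0.50 and 0.56). Nfkb1 (0.25) and Nfkbia (0.40) passed the adjusted p alone, for 8 members in all, against 11.1% of all tested genes.

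NTP before palmitate gave no member a called change. In PA+NTP against PA, 0 of 10 members were called higher or lower in edgeR's test (8.74% and 5.11% of all tested genes), 3 passed the adjusted p alone (44.7% of all tested genes passed it), and the same 3 had an unadjusted p under 0.05. DESeq2 called 0. The members' median log2 fold change was 0.02, against 0.01 for all tested genes. The 3 were Il1rn, which fell by 0.30 on the log2 scale to 20.20 and 22.78 FPKM (SE 0.09, edgeR adjusted p = 0.0108), Nfkb2, which rose by 0.42 to 38.94 and 37.68 FPKM (SE 0.06, 8.2e-05), and Relb, which rose by 0.33 to 14.68 and 13.28 FPKM (SE 0.08, 0.00511). None of these 3 passed with the GC trend removed, and Il1rn had a change of -0.03 (edgeR adjusted p = 0.849).

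Il6 was at 0.73 and 0.91 FPKM in PA+NTP, below both PA libraries and above both Vehicle libraries. The log2 fold change against PA was -0.87 (SE 0.45) and did not pass edgeR's test (adjusted p = 0.139). With the GC trend removed it was -0.51 (edgeR adjusted p = 0.433). The ratio of PA to PA+NTP counts, not corrected for GC content, was 1.93 (1.36 to 2.76, counting error only). Il1b was at 1.24 FPKM in both PA+NTP libraries (log2 fold change against PA 0.06, SE 0.42). Tnf was at 1.17 and 1.77 FPKM (0.28, SE 0.33) and Il1a at 1.94 and 1.43 FPKM (-0.38, SE 0.25), and for these 3 genes the PA and PA+NTP libraries overlapped. Nfkbia at 47.56 and 46.76 FPKM (-0.01, SE 0.06), Tnfaip3 at 9.0 and 8.88 FPKM (-0.15, SE 0.10) and Nfkb1 at 36.06 and 35.38 FPKM (0.06, SE 0.07) also missed the adjusted p. With the GC trend removed, Nfkbia (-0.21, edgeR adjusted p = 0.0285) and Nfkb1 (0.20, 0.0397) passed it, under the fold.

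Against Vehicle, PA+NTP was higher in 4 members, Tnf, Il1a, Il1b and Il6, and lower in 0, where edgeR called 1.21% of all tested genes higher and 1.64% lower. The same limit holds for Il1b and Il6, and 4 were also called with no filter, against 1.29% of all genes. Il6 had a ratio of 13.2 (4.27 to 65.7) and Il1b of 14.6 (6.07 to 46.0). Tnf had a log2 fold change of 1.45 (SE 0.36) and Il1a of 1.28 (SE 0.29). A further 4 members passed the adjusted p alone, for 8 in all against 10.1% of the tested genes, at 0.54 for Nfkbia, 0.53 for Tnfaip3, 0.39 for Il1rn and 0.26 for Nfkb1. The 4 calls depended on the Vehicle libraries: without Vehicle 2, 0 members were called (edgeR adjusted p = 0.0519 for Il1b, 0.113 for Il6, 0.124 for Il1a and 0.139 for Tnf). Tnf and Il1a were also lost without Vehicle 1 (0.122 and 0.071), Tnf without PA+NTP 2 (0.149) and Il1a without PA+NTP 1 (0.0583).

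NTP before linoleate gave 1 member a called change. Of the 10 members, 1 was called higher and 0 lower, where edgeR called 11.7% of all tested genes higher and 7.57% lower, and the members' median log2 fold change was 0.11. The one call was Il1b, with 5 and 18 counts (0.11 and 0.23 FPKM) in LA+NTP against 0 in LA (edgeR adjusted p = 0.00494). With the 0 of LA set to a floor of 3 counts, LA+NTP was 4.35-fold above LA. This ratio leaves out counting error and is not a lower limit. The levels in LA+NTP overlapped those of Vehicle. On the log2(FPKM + 1) scale the difference was 0.22 with an adjusted p of 0.179 in limma. Il1rn fell by 0.49 on the log2 scale to 11.33 and 13.21 FPKM (SE 0.09, edgeR adjusted p = 0.000314), the lowest of the 5 groups. Il1rn had a change of -0.13 (edgeR adjusted p = 0.315) with the GC trend removed. Nfkb2 rose by 0.54 to 37.52 and 34.39 FPKM (SE 0.06, 5.1e-06) and Relb by 0.45 to 13.36 and 13.41 FPKM (SE 0.08, 0.000378), all under the fold. With Il1b these were 4 members past the adjusted p, against 51.5% of all tested genes. Without LA+NTP 2, Il1rn (-0.63) and Nfkb2 (0.59) passed the fold. With the GC trend removed, Nfkbia (-0.32, edgeR adjusted p = 0.00207) and Nfkb1 (0.23, 0.024) passed the adjusted p in place of Il1rn, Nfkb2 and Relb.

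Against Vehicle, LA+NTP differed in 0 of 10 members at the adjusted p (1 at an unadjusted p under 0.05, and 0 called by DESeq2), where edgeR called 0.0567% of all tested genes higher and 0.0355% lower, and 0.284% passed the adjusted p. Between the 2 NTP groups, PA+NTP was higher than LA+NTP in 4 members, Tnf (1.97, SE 0.35), Il1b (2.76), Il6 and Il1rn (0.77), and lower in 0, against 1.38% and 2.45% of all tested genes. Here too Il1b and Il6 had passed the filter through palmitate, and with no filter 5 were called, against 1.34% of all genes. Nfkbia, Tnfaip3 and Nfkb1 passed the adjusted p alone, for 7 members in all against 14.8% of the tested genes. The change that NTP made with palmitate and the change it made with linoleate did not differ for any of the 10 members at the adjusted p, nor for any gene tested in edgeR (0.0% called), with 1 member (Il1b) and 1029 genes at an unadjusted p under 0.05. The estimated difference was -0.58 (SE 0.38) for Il1a, 0.09 (SE 0.54) for Tnf and 0.36 (SE 1.07) for Il6, so these intervals are wide.

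Over the whole design, the 4 libraries with palmitate lay above all 6 without it in 8 of 10 members, where 4.17% of the tested genes did so. Of the 8, Il1b and Il6 entered the test only through the palmitate groups, so they add no support. For Nfkbia the ranges were 45.03 to 47.56 FPKM with palmitate and 30.82 to 35.23 FPKM without. For Tnfaip3 they were 8.75 to 10.77 and 5.60 to 6.57 FPKM, and for Nfkb1 31.74 to 36.06 and 26.88 to 30.45 FPKM. In the order of levels, PA and PA+NTP were the top pair for each of these 8 members, and their libraries overlapped in Tnf, Il1a, Il1b and Tnfaip3 but not in Il6, Il1rn, Nfkbia and Nfkb1. For Nfkb2 and Relb the top pair was PA+NTP and LA+NTP, and LA was the lowest group.

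The correlation of levels across the 10 libraries, on the log2 CPM scale, showed the same grouping and is a description, since libraries of a group share their treatment. None of the correlations was corrected for the trend with GC content described below. Nfkb2 and Relb correlated with each other at r = 0.953 and with the other 8 members between -0.342 and 0.372. The other 8 correlated among themselves between 0.644 (Il1b with Il1rn) and 0.949 (Il6 with Nfkbia). The search for genes most like a member covered the tested genes at a mean FPKM of at least 1. Among these, the one most like Nfkbia was Vcam1 (r = 0.9889), an adhesion molecule, and Ccl2 (0.9764) was among its 3 nearest. The gene most like Nfkb1 was Cxcl2 (0.9556), that most like Il6 was Arg2 (0.9807), that most like Il1b was Fabp5 (0.9688) with the chemokine Ccl7 next (0.9648), and that most like Tnf was Nolc1 (0.9796). Il1a was most like Cybc1 (0.9555) and Il1rn most like Dnajc13 (0.9796). The genes most like Nfkb2 and Relb were others, Cluh (0.9917) and Preb (0.991).

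The balance of antagonist to agonist transcripts was expressed as the FPKM of Il1rn over the sum of Il1a and Il1b. It was 19.4 and 22.5 in Vehicle and 8.38 and 7.52 in PA, with no overlap. In PA+NTP it was 6.35 and 8.53, on both sides of the PA values. In LA it was 19.1 and 21.4, within or next to the Vehicle range, and in LA+NTP 10.2 and 10.8, between LA and PA. No test was run on this quotient. The quotient of Nfkb1 over Nfkb2 was 0.805 and 0.859 in Vehicle, 1.23 and 1.12 in PA and 1.14 and 1.12 in LA. It was 0.926 and 0.939 in PA+NTP and 0.812 and 0.791 in LA+NTP. Neither quotient was corrected for the trend with GC content described below. With that trend removed, the log2 fold changes of Nfkb1 and Nfkb2 were 0.06 and 0.12 in PA against Vehicle. In LA against Vehicle they were -0.21 and -0.03.

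**Figure D3:**
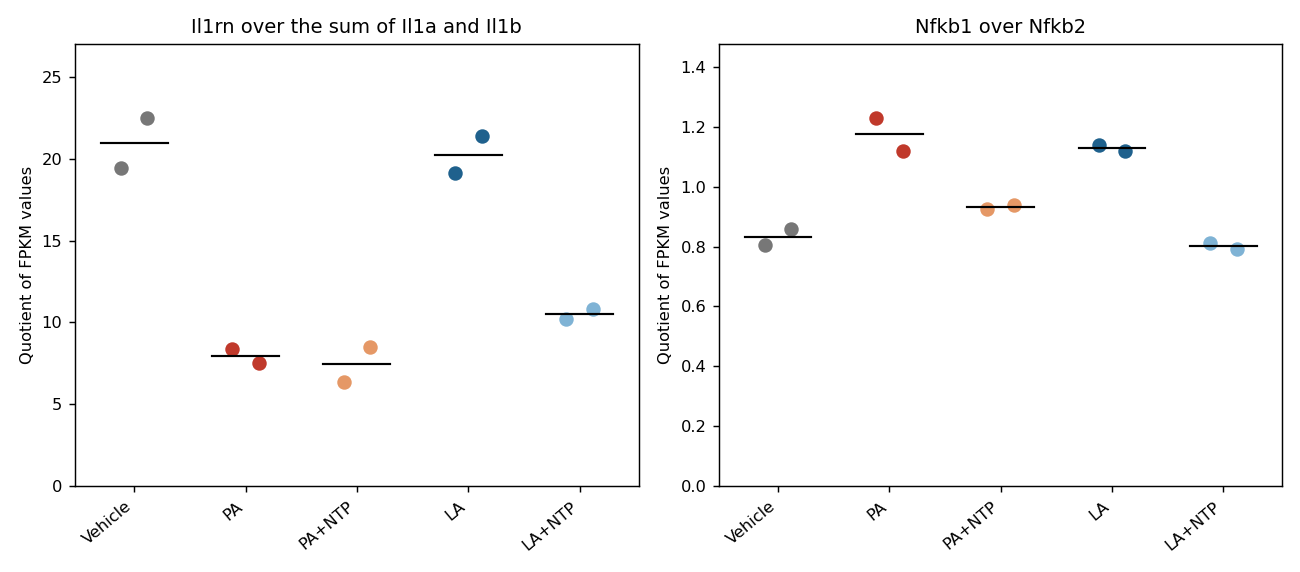
Quotients of FPKM values in each library (points) with group means (lines): Il1rn over Il1a plus Il1b (left) and Nfkb1 over Nfkb2 (right), by group. The left quotient is between 19.1 and 22.5 in Vehicle and LA and between 6.35 and 10.8 in the other 3 groups. The right one is highest in PA and LA, with no correction for GC content.

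One property of the libraries moved with these results, and its origin was not tested. Taken relative to its average in the 10 libraries, the log CPM of a gene followed the GC content of its transcript with a Spearman rho of -0.467 to -0.561 in the 4 libraries of PA and LA and of 0.337 to 0.561 in the 6 libraries of Vehicle, PA+NTP and LA+NTP (13930 genes). Nfkb2 (59.4% GC) and Relb (56.8%) lay at the 95.2 and 86.6 percentiles of GC content, and Il6 (39.3%), Il1a (41.3%) and Il1rn (41.6%) at the 4.4, 10.2 and 11.3 percentiles. With the trend of the log counts with GC removed in each library, the changes of Nfkb2 and Relb turned or vanished: 0.12 and 0.11 for PA against Vehicle, -0.03 and -0.02 for LA against Vehicle, -0.05 and -0.02 for PA+NTP against PA, and -0.06 and -0.01 for LA+NTP against LA. Tnf, Il1a, Il1b, Il6 and Tnfaip3 were still called higher in PA than in Vehicle, while Nfkb1, Nfkb2 and Relb no longer passed the adjusted p there. In LA against Vehicle, Nfkbia (0.32, edgeR adjusted p = 0.00423) and Nfkb1 (-0.21, 0.048) then passed it. Nfkb2 also shares 18.1% of its exon bases with genes on the other strand, and Il1a 11.2%. Whether the reads carried strand is not given in the sources used here, so reads of such stretches cannot be told apart.

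**Figure D4:**
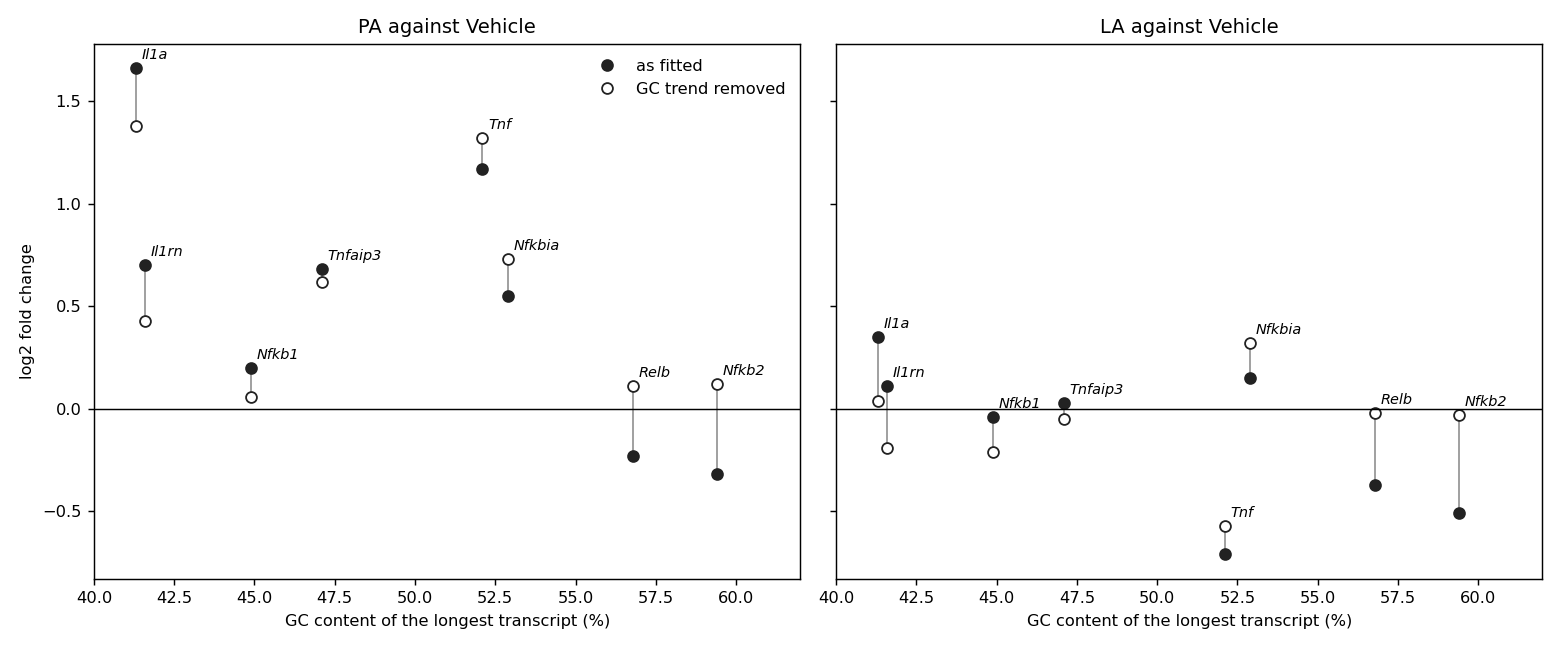
Log2 fold change (y axis) of 8 members against the GC content of their longest transcript in percent (x axis), for PA (left) and LA (right) against Vehicle, as fitted (filled) and after the GC trend was removed (open). Il6 and Il1b, with few or 0 counts in a group, are left out. Relb and Nfkb2 at the right edge move from below 0 to near 0, and Nfkbia moves up in both panels.

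Other genes of the pathway were taken from 5 lists by function, chosen with earlier results of these data known. Receptors and proximal signalling genes had 0 of 18 tested called in either direction in PA or LA against Vehicle, where the shares of all tested genes called higher and lower were 6.0% and 8.92% in PA and 3.53% and 7.11% in LA. Ltbr, which encodes the lymphotoxin β receptor that feeds the Nfkb2 arm, was the 1 called higher in LA+NTP against LA (log2 fold change 0.66, edgeR adjusted p = 2.09e-06), from 37.06 and 33.69 to 56.76 and 58.17 FPKM. This difference was 0.0015 with the GC trend removed, and without LA 2 it was 0.58.

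Of the IκB kinases and other Rel and IκB genes, 1 of 14 tested was called higher and 3 lower with PA. With LA these counts were 0 and 2. With NTP before either acid, against that acid alone, 4 were called higher and 1 lower. The shares of all tested genes were 6.0% and 8.92% with PA and 3.53% and 7.11% with LA. With NTP they were 8.74% and 5.11% before PA and 11.7% and 7.57% before LA. Bcl3, a nuclear IκB that works with p50 and p52 dimers, fell from 42.81 and 42.02 FPKM in Vehicle to 22.80 and 25.20 FPKM in PA (log2 fold change -0.78, edgeR adjusted p = 2.37e-06), and stood at 49.68 and 49.08 FPKM in PA+NTP. Rela, the main activating subunit, fell by 0.60 with PA, from 66.14 and 64.13 to 42.22 and 41.78 FPKM, and rose by 0.75 with NTP. Map3k14 (NIK), the kinase of the Nfkb2 arm, fell by 0.75 with PA and rose by 0.75 with NTP, and Nfkbib (IκBβ) fell by 0.85 with LA and rose by 0.84 with NTP. The transcripts of these 4 genes had 58.7% to 62.6% GC, and with the GC trend removed none of their calls held: Bcl3 gave -0.22, Rela -0.16 and Map3k14 -0.34 for PA against Vehicle, and Nfkbib -0.41 for LA against Vehicle. Without Vehicle 1, Rela fell by 0.58 with PA, under the fold.

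Of the other feedback and mRNA decay genes, 3 of 14 tested were called higher and 3 lower with PA, against 6.0% and 8.92% of all tested genes. With LA, 1 was called higher and 0 lower (3.53% and 7.11%). In PA+NTP against PA, 2 and 2 were called (8.74% and 5.11%), and in LA+NTP against LA 4 and 2 (11.7% and 7.57%). Zc3h12a, which encodes Regnase-1, an RNase that destroys Il6 and other cytokine transcripts, rose from 4.43 and 4.24 FPKM in Vehicle to 12.00 and 12.42 FPKM in PA (log2 fold change 1.53, edgeR adjusted p = 8.6e-08). It also rose in LA, to 9.14 and 9.35 FPKM (1.14, 1.83e-06), where no cytokine member was called higher. NTP lowered it with both acids, to 6.88 and 5.84 FPKM in PA+NTP and 4.55 and 4.71 FPKM in LA+NTP. Its changes were larger with the GC trend removed, at 1.88 for PA and 1.51 for LA against Vehicle.

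Zfp36 encodes tristetraprolin, which binds AU-rich elements and speeds the decay of Tnf and other transcripts. It fell from 17.34 and 14.04 FPKM in Vehicle to 7.39 and 7.59 FPKM in PA (log2 fold change -1.02, edgeR adjusted p = 2.53e-05), and NTP raised it to 14.54 and 14.31 FPKM. Its relative Zfp36l1 fell from 258.46 and 252.51 to 136.26 and 142.63 FPKM (-0.84, 1.28e-06) and rose to 243.06 and 272.37 FPKM in PA+NTP. Both kept these calls with the GC trend removed (-0.79 and -0.83 for PA against Vehicle). In LA against Vehicle, Zfp36 (-0.52) and Zfp36l1 (-0.54) passed edgeR's adjusted p but not the fold. The 2 genes were called higher in LA+NTP against LA (0.89 and 0.73). In PA+NTP, Zfp36 lay within its Vehicle range and Tnf above it. Whether Zfp36 or another of these decay genes affected the level of Tnf or other cytokine transcripts was not tested.

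Of the other cytokines and processing genes, 3 of 14 tested were called higher with PA and 0 lower (6.0% and 8.92% of all tested genes), and with LA 0 and 1 (3.53% and 7.11%). Casp4, which encodes the inflammatory caspase-11, rose from 0.97 and 1.07 FPKM in Vehicle to 2.94 and 2.39 FPKM in PA (1.38, edgeR adjusted p = 0.0039) and stood at 2.81 and 1.76 FPKM in PA+NTP. Tgfb1, which encodes a growth factor that drives fibrosis, fell by 0.68 with LA and rose by 0.66 with NTP. Lif, a relative of interleukin-6, rose by 0.67 in PA+NTP against PA. With the GC trend removed the calls of Tgfb1 (-0.53 and 0.46) and Lif (0.48) were lost.

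Of 20 tested NF-κB target genes, 6 were called higher and 1 lower in PA, 1 higher and 0 lower in LA, 7 higher and 0 lower in PA+NTP against Vehicle, and 2 higher and 0 lower in PA+NTP against PA. The shares of all tested genes called higher in these contrasts were 6.0%, 3.53%, 1.21% and 8.74%, and those called lower 8.92%, 7.11%, 1.64% and 5.11%. Ccl2, the monocyte chemoattractant, rose from 162.14 and 158.00 FPKM in Vehicle to 392.87 and 411.03 FPKM in PA (log2 fold change 1.36, edgeR adjusted p = 3.83e-09), was at 477.87 and 472.33 FPKM in PA+NTP, and stayed at 168.98 and 162.19 FPKM in LA. Cxcl2, a neutrophil chemoattractant, rose by 1.34 with PA, from 1.39 and 1.46 to 3.85 and 3.35 FPKM, and Vcam1 by 1.22, from 4.12 and 3.86 to 9.29 and 8.94 FPKM. All 3 kept their calls with the GC trend removed. Cxcl10, a chemokine for T cells, was the gene called lower with PA (-0.81, edgeR adjusted p = 0.0029), and without PA 2 its change was -0.41 and not called (0.104).

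**Figure D5:**
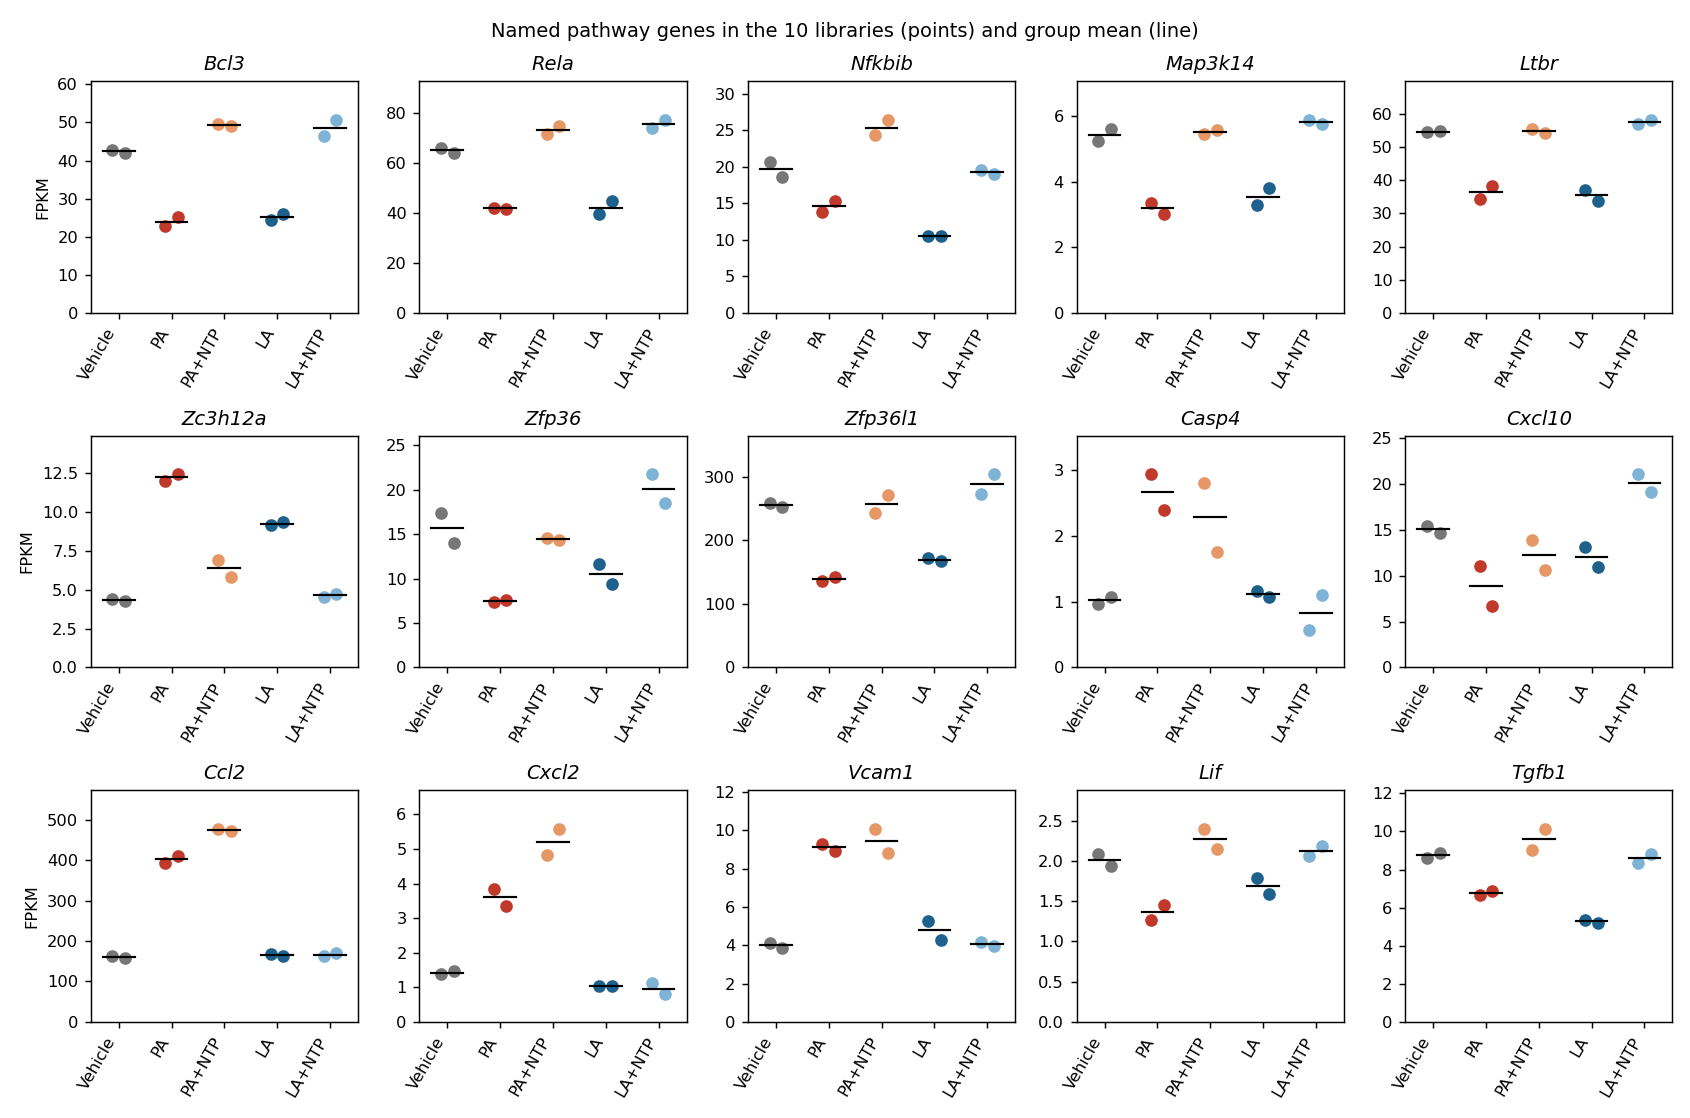
FPKM (y axes, each from 0) of the 15 pathway genes named by rule in the 2 libraries (points) of each group, with group means (lines). Zc3h12a is highest in PA and next in LA; Ccl2, Cxcl2 and Vcam1 are high in both palmitate groups; Bcl3, Rela and Map3k14 are low in PA and LA alone.

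Markers of other liver cells were read beside these results, since a culture of hepatocytes can hold Kupffer cells, and in bulk RNA fewer cells of a type and less RNA per cell cannot be told apart. Alb, the defining hepatocyte transcript, was at 1928.73 to 2818.48 FPKM in all libraries, and the sum of the 10 hepatocyte markers was 4030 to 4260 FPKM in Vehicle, 2650 to 2960 in PA, 3300 to 3730 in PA+NTP, 3920 to 4050 in LA and 4780 to 5110 in LA+NTP. The sum of the 12 Kupffer cell and macrophage markers was 220 to 221 FPKM in Vehicle, 219 to 253 in PA, 282 to 315 in PA+NTP, 140 to 145 in LA and 198 to 211 in LA+NTP, and most of it was Cd68. Of 10 tested, 2 were called higher in PA than in Vehicle (Marco and Lyz2) and 2 lower (Cd5l and C1qc). The shares of all tested genes were 6.0% and 8.92%. In PA+NTP against Vehicle 3 were called higher, Adgre1 (log2 fold change 1.16), Marco and Lyz2, and 0 lower, against 1.21% and 1.64%. Marco, a scavenger receptor, had group means of 0.625 FPKM in Vehicle, 3.42 in PA and 3.97 in PA+NTP, and 0.68 in LA. The defining Kupffer genes Clec4f, Vsig4 and Timd4 were at most 0.30 FPKM in every library, and the mean of Clec4f was 0.185 FPKM in Vehicle and 0.04 in PA. The 8 leukocyte markers summed to 26.4 to 28.9 FPKM in Vehicle, 29.2 to 34.7 in PA and 49.5 to 54.2 in PA+NTP, mostly Cd14, with S100a8 and S100a9 at 0 in all 10 libraries. Of 4 tested leukocyte markers, 2 were called higher in PA than in Vehicle and 0 lower, against the same 6.0% and 8.92%. These were Itgam (log2 fold change 2.11, edgeR adjusted p = 0.00269) and Ptprc (0.69, 0.0424). Their group means in PA were 0.26 and 0.725 FPKM. The lymphocyte markers summed to at most 0.22 FPKM. The part of these cells in the cytokine values was not tested.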

How the data were processed

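RNA of primary hepatocytes was sequenced in 2 libraries per group. Alignment by the authors used HISAT and Bowtie2, and RSEM gave the gene values. The submitters' processing notes name mm10 and no versions. The deposited expected counts are RSEM estimates per gene without normalization. The deposited FPKM values were scaled by the authors for length and library size. The lowest FPKM listed in a table is 0.01, and a gene not listed was taken as 0. Of 18055 gene IDs, 17998 were matched by ID and 11 by accession to RefSeq genes of GRCm38.p6.

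Groups and replicate numbers follow the sample labels. The NTP level of 0.4 NU/mL comes from the study's legend on RNA sequencing. Expected counts were rounded and fitted in edgeR 4.0.16 (R 4.3.3) with filterByExpr and TMM, all 10 libraries in one model with group as factor, and tested with the quasi-likelihood F test. P-values were adjusted by Benjamini-Hochberg over 14097 genes, and 3958 were dropped. Genes were called at an adjusted p under 0.05 and a fold of at least 1.5. SE is the fold change over the root of F. The fit was tested on simulated data. The study's NOISeq test was not run. Depth, 13142588 to 60046937 counts, leaves genes of few counts imprecise, and count ratios carry exact 95% intervals for counting error only. A ratio to 0 counts was taken with a floor of 3 counts and carries no interval. GC content came from the longest GENCODE M21 transcript, and its trend was removed by loess (span 0.4).

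The members and lists were chosen with earlier results of these data known. All 10 members are named. From each pathway list the 3 genes with the largest mean change in each direction, over the contrasts where they were called, are named at a mean FPKM of at least 1. The results were also computed with DESeq2 1.42.0, with scaling by library size alone, without a filter, with a mean FPKM filter of 1, no fold, limma 3.58.1 on log2(FPKM + 1) and log2(FPKM + 0.1), only the groups compared, the replicate block, the GC trend removed, and each library left out. One correlation result is not reported here.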

Additional observations from a re-analysis of the deposited data

How the results depend on the processing

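With 2 libraries per group, depth limits Il6 and Il1b most, at 3 and 5 counts in Vehicle. A mean FPKM filter of 1 removed Tnf, Il1b and Il6 from the test and left 3 members higher in PA against Vehicle, 0 in LA+NTP against LA, 1 in PA+NTP against Vehicle, 2 in PA against LA and 1 in PA+NTP against LA+NTP. Without the fold, 2 members were lower in PA and 2 in LA against Vehicle, 2 were higher and 1 lower in PA+NTP against PA, 3 higher and 1 lower in LA+NTP against LA, 8 higher in PA+NTP against Vehicle and 7 in PA+NTP against LA+NTP. DESeq2, no filter and limma on log2(FPKM + 0.1) each called 1 member lower in LA, Il1b. In LA+NTP against LA, library-size scaling called 2 higher and limma on log2(FPKM + 1) called 0. With a library left out, members called higher ranged from 4 to 6 in PA against Vehicle, 1 to 2 in LA+NTP against LA (0 to 1 lower), 0 to 4 in PA+NTP against Vehicle, 3 to 6 in PA against LA and 4 to 5 in PA+NTP against LA+NTP.

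Signs turned as follows, in log2 fold change, and the cause was not tested. With the GC trend removed, Nfkb2 and Relb gave 0.12 and 0.11 in PA against Vehicle, -0.05 and -0.02 in PA+NTP against PA, and -0.06 and -0.01 in LA+NTP against LA. Il1rn and Tnfaip3 gave -0.19 and -0.05 in LA against Vehicle, and Nfkb1, Nfkb2 and Relb gave 0.01, -0.1 and -0.03 in LA+NTP against Vehicle. In the difference of the NTP effects, Nfkb1 and Nfkb2 gave -0.02 and 0.02. Tnfaip3 in LA against Vehicle was -0.02 with library-size scaling, -0.01 in limma at FPKM + 1 and -0.02 at FPKM + 0.1. Nfkbia in PA+NTP against PA was 0.04, 0.04 and 0.05 in these 3 and 0.01 with the FPKM filter. Il6 in the difference of the NTP effects was -0.36 and -0.54 in limma. None of these turned values was a called change.

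Leaving out a library turned signs of uncalled changes only. In LA against Vehicle, Il6 ranged from -4.12 to 0.52, Tnfaip3 from -0.06 to 0.13 and Nfkb1 from -0.07 to 0.0017. In PA+NTP against PA, Tnf ranged from -0.07 to 0.56, Il1a from -0.65 to 0.10, Il1b from -0.40 to 0.48, Nfkbia from -0.03 to 0.0031 and Nfkb1 from -0.01 to 0.12. In LA+NTP against LA, Tnf ranged from -0.06 to 0.39, Il6 from -2.02 to 2.63, Tnfaip3 from -0.07 to 0.12 and Nfkb1 from -0.06 to 0.09. In LA+NTP against Vehicle, Nfkbia ranged from -0.00051 to 0.11, Tnfaip3 from -0.01 to 0.11, Nfkb1 from -0.10 to 0.05 and Nfkb2 from -0.02 to 0.09. Relb in PA+NTP against LA+NTP ranged from -0.03 to 0.09. In the difference of the NTP effects, Tnf ranged from -0.26 to 0.38, Il6 from -3.5 to 1.15 and Nfkb1 from -0.03 to 0.11.

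Replicate numbers are shared between groups, but the differences between replicates 1 and 2 correlated between groups only from -0.074 to 0.236, so they were not taken as pairs. With the replicate block, 1 call of a member changed: Il1rn in PA against LA was 0.58 and under the fold. The number of all tested genes called higher and lower was 3310 and 3101 in PA against Vehicle without the fold and 426 and 812 in limma on log2(FPKM + 1). With the GC trend removed it was 536 and 702 in PA against Vehicle (from 846 and 1257), 154 and 349 in LA against Vehicle (from 498 and 1002), 536 and 369 in PA+NTP against PA (from 1232 and 721) and 545 and 351 in LA+NTP against LA (from 1651 and 1067).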
